A study of Chlamydomonas reinhardtii with 6 samples.

Results

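The major antenna genes LHCBM1 to LHCBM9 of the unicellular green alga Chlamydomonas reinhardtii were followed in 6 RNA sequencing libraries, 3 from a knockout of CMD1 (cmd1 KO) and 3 from wild type (WT), both in strain CC125. They were selected by gene identifier and not by any measured value, and all 9 were found among the 17736 gene models of the deposited table. All 9 had a mean of at least 1 FPKM (a count scaled to gene length and to the library's total) over the 6 libraries and so were among the 10878 genes tested. CMD1 is related to the TET dioxygenases, which oxidise methylated cytosine in animal DNA, and the study asked how gene expression changes in its absence. Cultures of both genotypes were grown at 25 °C in an acetate medium under 20 µmol photons per m2 per s, then placed in a high salt medium and lit at 300 µE. The sources used here do not say how long the exposure lasted, how the mutation was made or how many mutant clones there were. The knocked-out gene was not analysed here, since nothing in the files names its row, and the genotype labels therefore stand unchecked.

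The LHCBM proteins bind chlorophyll a and b and form the trimeric light-harvesting complexes (LHCII) that feed energy to photosystem II. In Chlamydomonas they are sorted by sequence into type I (LHCBM3, LHCBM4, LHCBM6, LHCBM8 and LHCBM9), type II (LHCBM5), type III (LHCBM2 and LHCBM7, whose mature proteins are identical) and type IV (LHCBM1). Strong light generally calls for a smaller antenna and for dissipation of excess energy, and single LHCBM proteins are known for different parts in these responses. No sequence table for these genes was used here.

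The libraries did not behave as 3 equal replicates per genotype. Gene counts summed to between 38875025 and 47869886 per library. Scaling factors by the trimmed mean of M-values (TMM), which set the typical gene level between libraries, were 0.515, 0.489 and 1.38 in cmd1 KO replicates 1, 2 and 3 and 1.31, 1.29 and 1.70 in WT replicates 1, 2 and 3. FPKM is scaled on library size alone, and that scaling and TMM therefore give different answers on direction for several genes. Within replicates 1 and 2, the median log2 difference (cmd1 KO minus WT) over all tested genes was -0.07 with TMM and -1.44 with library sizes alone. Results are given for both scalings, and for replicates 1 and 2 apart from replicate 3. In bulk RNA, a change in every cell and a change in the share of cells that express a gene cannot be told apart.

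LHCBM1 led and LHCBM8 and LHCBM9 closed the order of levels in both genotypes. Mean FPKM over 3 libraries ran, in cmd1 KO, from LHCBM1 at 4700.4 ± 1713 (SD, n = 3) through LHCBM7, LHCBM3, LHCBM2, LHCBM6, LHCBM5, LHCBM4 and LHCBM8 to LHCBM9 at 2.29 ± 0.954 (SD, n = 3). In WT the order was the same down to LHCBM4, from LHCBM1 at 4659 ± 453 (SD, n = 3), with LHCBM9 at 92.3 ± 77.5 above LHCBM8 at 28.0 ± 15.9 at the low end (SD, n = 3 each). Not all of these steps were clear of the spread between libraries. In cmd1 KO the ranges of LHCBM7 and LHCBM3, of LHCBM6 and LHCBM5, and of LHCBM5 and LHCBM4 overlapped. In WT those of LHCBM3 and LHCBM2, of LHCBM4 and LHCBM9, and of LHCBM9 and LHCBM8 did. Among all 17736 genes, LHCBM1 ranked 62nd by mean FPKM in cmd1 KO and 54th in WT, and LHCBM9 ranked 6215th in cmd1 KO and 523rd in WT.

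Over all 6 libraries no LHCBM gene passed the genome-wide test, and the TMM-scaled and library-size directions often disagreed. edgeR's quasi-likelihood test with TMM scaling called 0 of the 9 at a Benjamini-Hochberg adjusted p of 0.05, as it did 0.0% of the 10878 tested genes. At an unadjusted p under 0.05 it marked 1 of the 9, LHCBM9, as lower, where it marked 8.81% of tested genes lower. DESeq2 called 1 of the 9, LHCBM9, as lower in cmd1 KO (log2 difference -4.42, adjusted p = 0.00445), where it called 2.54% of tested genes lower. limma on log2(FPKM + 1) called 0 and marked 4 as lower at an unadjusted p under 0.05 (LHCBM5, LHCBM6, LHCBM7 and LHCBM9), where it marked 25.3% of tested genes lower. Without cmd1 KO replicate 3, edgeR called 3 members higher (LHCBM1, LHCBM3 and LHCBM7) against 18.1% of all tested genes, and 1 lower (LHCBM5) against 20.7%. In FPKM, 5 members lay lower in every cmd1 KO library than in every WT library (LHCBM2, LHCBM3, LHCBM6, LHCBM7 and LHCBM8), a pattern shown by 29.7% of tested genes. After TMM scaling only LHCBM5 had genotypes that did not overlap, a state shared by 23.0% of tested genes.

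**Figure D1:**
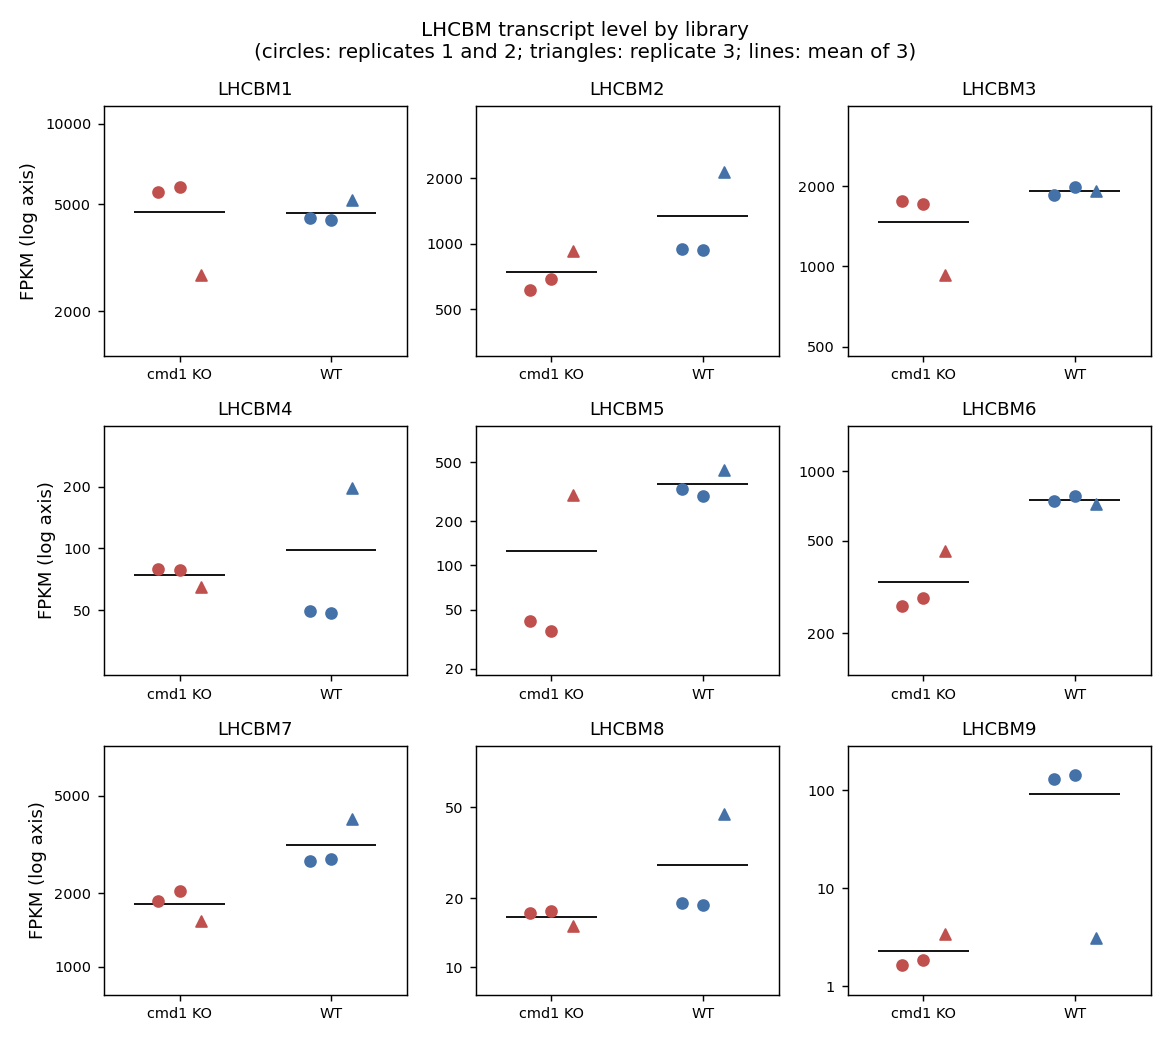
FPKM of each LHCBM gene on a log axis, 1 panel per gene, with cmd1 KO libraries left of WT libraries, circles for replicates 1 and 2, triangles for replicate 3 and a line at the mean of the 3. LHCBM9 was above 100 FPKM in WT replicates 1 and 2 and below 4 FPKM in the other 4 libraries.

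Within replicates 1 and 2, LHCBM1 and LHCBM4 rose in cmd1 KO and LHCBM5 and LHCBM9 fell under both scalings. The sign for LHCBM2, LHCBM3, LHCBM7 and LHCBM8 depended on the scaling, and LHCBM6 had a negative value under both, called with library sizes alone. With TMM, edgeR called 6 of 9 members higher (LHCBM1, LHCBM2, LHCBM3, LHCBM4, LHCBM7 and LHCBM8), where 34.3% of all tested genes were called higher. It called 2 of 9 lower (LHCBM5 and LHCBM9), where 37.8% of tested genes were called lower. With library sizes alone it called 2 of 9 higher (LHCBM1 and LHCBM4) against 6.36% of tested genes, and 5 of 9 lower (LHCBM2, LHCBM5, LHCBM6, LHCBM7 and LHCBM9) against 78.8%. The median log2 difference of the 9 was 0.88 with TMM, where that of all tested genes was -0.07, and -0.49 with library sizes alone, where that of all tested genes was -1.44. These fits rest on 2 libraries per genotype, and their spread is that between replicates 1 and 2 only.

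**Figure D2:**
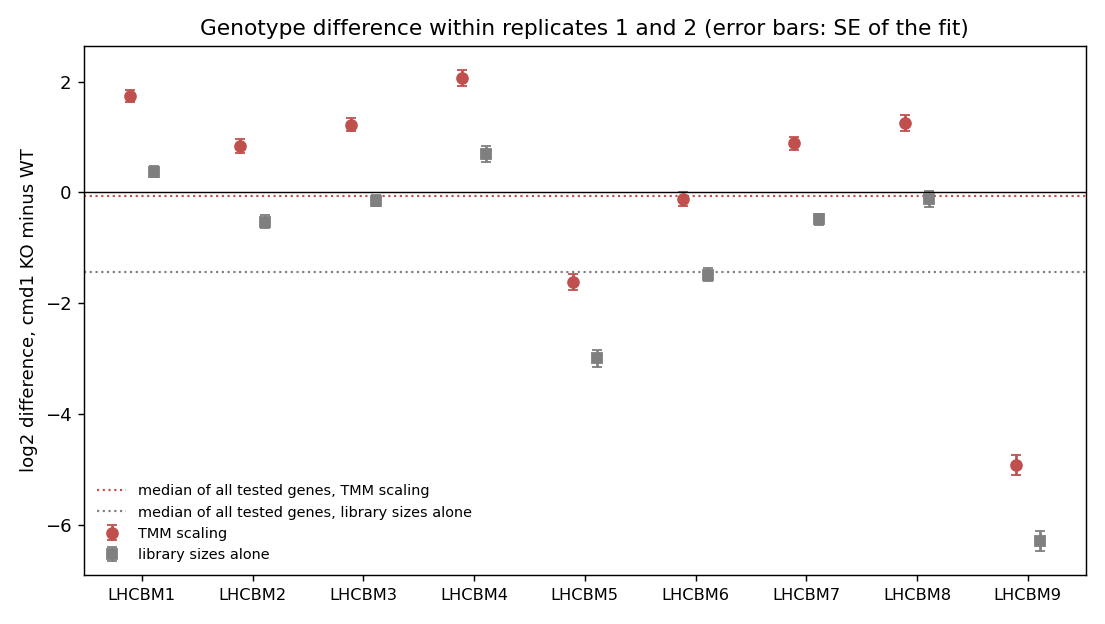
Log2 difference, cmd1 KO minus WT, of each LHCBM gene within replicates 1 and 2, with TMM scaling (red circles) and with library sizes alone (grey squares), error bars showing the SE of the edgeR fit and dotted lines the median of all tested genes (-0.07 and -1.44). LHCBM1 and LHCBM4 lie above 0 and LHCBM5 and LHCBM9 below 0 under both scalings.

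LHCBM1 (Cre01.g066917.v5.5; chromosome 1, 7954526 to 7956348 of the v5.5 assembly), the type IV member and the one best known for its part in the thermal dissipation of excess light energy, was the most abundant. Its FPKM was 5559, 5814 and 2728 in the cmd1 KO libraries (replicates 1, 2 and 3, as in all such lists), against 4432, 4364 and 5180 in the WT libraries. The cmd1 KO values were the highest of all in replicates 1 and 2 and the lowest of all in replicate 3, so the genotypes overlapped. Over all 6 libraries the TMM log2 difference was 1.33 (SE 0.67, adjusted p = 0.322 in edgeR), and with library sizes alone it was 0.01. In replicates 1 and 2 it rose, by 1.74 on the log2 scale (SE 0.11, edgeR adjusted p = 3.54e-15) with TMM and by 0.37 (SE 0.10, adjusted p = 0.00148) with library sizes alone. In pair 3 the log2 ratio was -0.62 with TMM and -0.93 with library sizes alone.

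The type III genes LHCBM2 and LHCBM7 lie on the same chromosome and had similar differences between genotypes in each pair. Reduced expression of this pair is known to impair state transitions, the shift of antenna between the photosystems. LHCBM2 (Cre12.g548400.v5.5; chromosome 12, 8441637 to 8443566) had 615, 689 and 924 FPKM in cmd1 KO, against 949, 932 and 2133 FPKM in WT. LHCBM7 (Cre12.g548950.v5.5; chromosome 12, 8390064 to 8391748) had 1864, 2032 and 1535 FPKM in cmd1 KO, against 2696, 2769 and 4017 FPKM in WT. Both were lower in every cmd1 KO library than in any WT library in FPKM. The exact permutation test, two-sided, gave p = 0.1 for each, the smallest that 3 libraries against 3 allow. In FPKM, WT replicate 3 was the highest library for both genes. Within cmd1 KO, replicate 3 was the highest library for LHCBM2 and the lowest for LHCBM7 on that scale. In TMM-scaled CPM (counts relative to the library total), replicate 3 was instead the lowest cmd1 KO library for both. LHCBM2 then had 1471, 1737 and 825 in cmd1 KO, against 894, 887 and 1544 in WT. For LHCBM7 these were 3831, 4398 and 1178 in cmd1 KO, against 2181, 2263 and 2497 in WT. In replicates 1 and 2 the difference changed sign with the scaling. LHCBM2 had a log2 difference of 0.84 (SE 0.13, edgeR adjusted p = 4.59e-07) with TMM and of -0.53 (adjusted p = 0.00036) with library sizes alone. For LHCBM7 these were 0.88 (SE 0.12, adjusted p = 5.98e-08 in edgeR) and -0.49 (adjusted p = 0.000279). Their places among all tested genes hardly depended on it: LHCBM2 stood above 76.7% of tested genes with TMM and 76.6% with library sizes alone, and LHCBM7 above 77.8% and 77.7%. In pair 3 both had negative log2 ratios under both scalings, -0.90 and -1.08 with TMM for LHCBM2 and LHCBM7, below all but 6.39% and 4.29% of tested genes. Since reads of 2 genes with such similar coding sequence may be split between them, and how the counting treated such reads is not given, their summed share of the family is also given further on.

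LHCBM3 (Cre04.g232104.v5.5; chromosome 4, 3996706 to 3999362) was the most abundant type I gene. It had 1754, 1717 and 927 FPKM in cmd1 KO, against 1857, 1991 and 1911 FPKM in WT. On this scale the WT libraries lay close together and cmd1 KO replicate 3 stood far below the rest. Its log2 difference within replicates 1 and 2 was 1.22 (SE 0.12, adjusted p = 3.28e-11 in edgeR) with TMM, but -0.15 (adjusted p = 0.178) with library sizes alone. In pair 3 the log2 ratio was -0.74 with TMM and -1.04 with library sizes alone.

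The other type I genes, LHCBM4, LHCBM9, LHCBM8 and LHCBM6, lie in this order on chromosome 6 and differed in pattern. LHCBM4, LHCBM6 and LHCBM8 have been tied to photoprotection through strains with reduced expression, and LHCBM9 is known for its induction when nutrients such as sulphur run out. LHCBM4 (Cre06.g283950.v5.5; chromosome 6, 5405936 to 5407630) had 79.7, 78.2 and 65.1 FPKM in cmd1 KO, against 49.6, 48.2 and 198 FPKM in WT. In FPKM the cmd1 KO libraries were alike, and lay between the low WT replicates 1 and 2 and the high WT replicate 3. In TMM-scaled CPM they stood at 173, 179 and 52.8, against 42.3, 41.6 and 130 in WT. On that scale cmd1 KO replicates 1 and 2 lay above every WT library. LHCBM4 rose in replicates 1 and 2, by 2.06 on the log2 scale (SE 0.15, edgeR adjusted p = 3.84e-14) with TMM and by 0.69 (SE 0.14, adjusted p = 0.00016) with library sizes alone. In pair 3 its log2 ratio was -1.30 with TMM and -1.60 with library sizes alone.

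LHCBM9 (Cre06.g284200.v5.5; chromosome 6, 5428650 to 5433565) showed the largest range of the family. Its counts were 186, 176 and 313 in the cmd1 KO libraries, against 13893, 14132 and 290 in the WT libraries. In FPKM these were 1.64, 1.86 and 3.39 in cmd1 KO, against 130, 144 and 3.12 in WT. The gene was thus high in WT replicates 1 and 2 alone. In FPKM, WT replicate 3 lay between the cmd1 KO libraries. In TMM-scaled CPM it lay below them, at 4.38 against 7.57, 9.05 and 5.86 in cmd1 KO. LHCBM9 fell in replicates 1 and 2, with a log2 difference of -4.92 (SE 0.18, edgeR adjusted p = 1.34e-21) with TMM and of -6.29 (SE 0.18, adjusted p = 8.88e-16) with library sizes alone. Only 0.331% of tested genes had a lower value with TMM. In pair 3 the log2 ratio was 0.42 with TMM and 0.12 with library sizes alone. Between the WT libraries, the level in replicates 1 and 2 (geometric mean) was 43.7 times that in replicate 3. The log2 difference over all 6 libraries, -4.49 (SE 1.30, adjusted p = 0.263 in edgeR), therefore mixes WT libraries that were far apart.

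LHCBM8 (Cre06.g284250.v5.5; chromosome 6, 5433613 to 5437765) begins 47 bases beyond the end of LHCBM9 and had another pattern. It stood at 17.2, 17.6 and 15.1 FPKM in cmd1 KO, against 19.0, 18.7 and 46.4 FPKM in WT. On this scale WT replicate 3 lay far above the rest and the other libraries lay close together. In TMM-scaled CPM it stood at 91.5, 98.6 and 30.2 in cmd1 KO, against 39.9, 39.6 and 74.9 in WT. With replicates 1 and 2 alone the log2 difference was 1.25 (SE 0.15, adjusted p = 4.67e-09 in edgeR) with TMM and -0.12 (adjusted p = 0.448) with library sizes alone. In pair 3 the log2 ratio was -1.31 with TMM and -1.62 with library sizes alone.

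LHCBM6 (Cre06.g285250.v5.5; chromosome 6, 5548156 to 5550742) was lower in cmd1 KO in all 3 pairs. It had 263, 283 and 450 FPKM in cmd1 KO, against 746, 785 and 719 FPKM in WT, with WT libraries close together and every cmd1 KO library below them (exact permutation test, two-sided, p = 0.1, the smallest possible). TMM scaling nearly removed the difference within replicates 1 and 2, to a log2 value of -0.12 (SE 0.13, adjusted p = 0.414 in edgeR), whereas it was -1.49 (SE 0.12, adjusted p = 4.59e-10) with library sizes alone. That TMM value was 0.016 without a filter on low genes, and -0.58 (adjusted p = 2.53e-05) when only genes of at least 5 FPKM were kept. With TMM LHCBM6 thus stood near the middle of all tested genes, above 48.8% of them. Its pair ratios were -0.16, -0.07 and -0.37 with TMM in pairs 1, 2 and 3, and -1.50, -1.47 and -0.68 with library sizes alone.

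LHCBM5 (Cre03.g156900.v5.5; chromosome 3, 2108155 to 2110445), the type II member and an antenna protein found with photosystem I in state transitions, fell in replicates 1 and 2 under both scalings. It had 42.1, 36.1 and 299 FPKM in cmd1 KO, against 328, 296 and 442 FPKM in WT. The first 2 of these cmd1 KO libraries were far below all others, and replicate 3 was level with WT replicate 2. Its log2 difference within replicates 1 and 2 was -1.63 (SE 0.14, adjusted p = 5.96e-12 in edgeR) with TMM and -2.99 (SE 0.15, adjusted p = 7.83e-13) with library sizes alone. In pair 3 the log2 ratio was -0.26 with TMM and -0.56 with library sizes alone, so LHCBM5 was lower in cmd1 KO in every pair under both. Over all 6 libraries the TMM log2 difference was -0.99 (SE 0.49, adjusted p = 0.315 in edgeR).

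Replicate 3 gave another genotype difference than replicates 1 and 2 for 8 of the 9 genes, and the median over the family had the other sign with TMM. In pair 3 every member but LHCBM9 had a negative log2 ratio under both scalings, with a median of -0.74 with TMM, where that of all tested genes was -0.01, and of -1.04 with library sizes alone, where that of all genes was -0.32. In pairs 1 and 2 the TMM medians of the members were 0.81 and 0.97, beside -0.06 and -0.09 over all tested genes. edgeR's test of the interaction between genotype and replicate 3 called 8 of 9 members, where it called 50.7% of all tested genes. The difference was lower in replicate 3 for 6 members (23.4% of tested genes) and higher for 2, LHCBM5 and LHCBM9 (27.3% of tested genes). LHCBM6, with a change of -0.26 (SE 0.22, adjusted p = 0.347 in edgeR), was not called. Replicate 3 has 1 library per genotype, so this test takes its spread from replicates 1 and 2. The labels name no batch, and whether a culture or library step differed in replicate 3 was not tested.

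**Figure D3:**
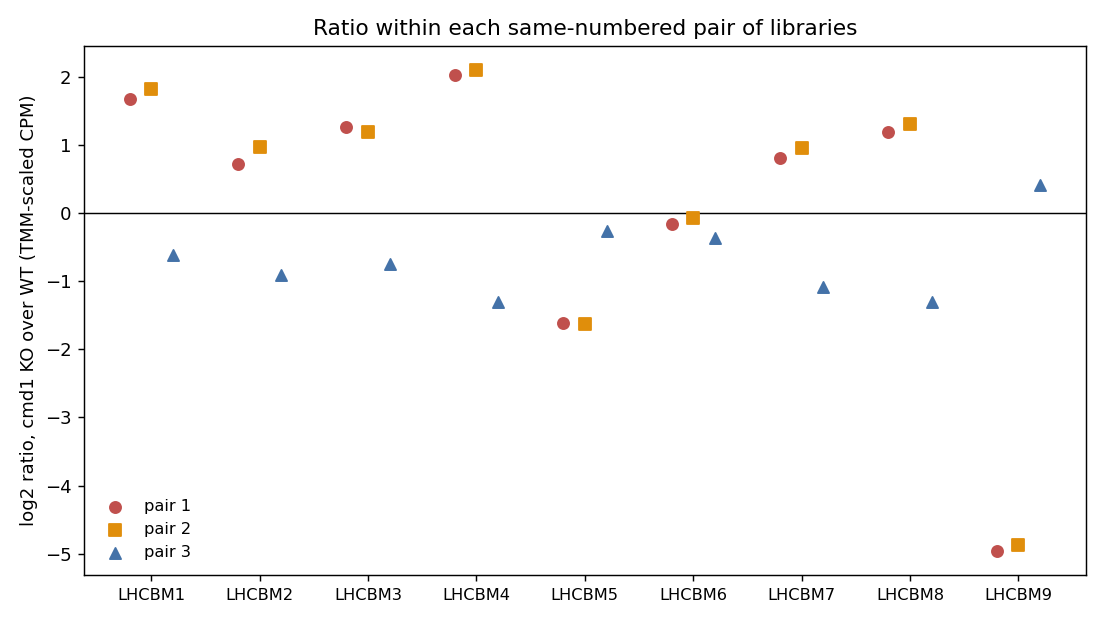
Log2 ratio of cmd1 KO over WT for each LHCBM gene in the 3 same-numbered pairs of libraries, from TMM-scaled CPM. Pairs 1 and 2 nearly coincide, and pair 3 lies below them for LHCBM1, LHCBM2, LHCBM3, LHCBM4, LHCBM7 and LHCBM8 and above them for LHCBM5 and LHCBM9.

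Summed over the 9 genes, LHCBM transcripts took a smaller share of all counts in cmd1 KO. The share was 1.21%, 1.26% and 0.854% in the cmd1 KO libraries, against 1.41%, 1.44% and 1.78% in WT, and the genotypes did not overlap. The means were 1.11% ± 0.223 in cmd1 KO and 1.54% ± 0.208 in WT (SD, n = 3 each). On the same scale, 29.7% of single tested genes were lower without overlap. With library sizes alone, the median log2 ratio of all tested genes was -1.40, -1.48 and -0.32 in pairs 1, 2 and 3. That of the members was -0.53, -0.43 and -1.04, less negative in pairs 1 and 2 and more negative in pair 3. Of the 9 members, 6, 7 and 1 lay above the median of all tested genes in pairs 1, 2 and 3. LHCBM5 and LHCBM9 fell further than that median in pairs 1 and 2. The summed share depends on what else the libraries hold. When the 50 most abundant other genes (ranked on WT) were left out of the total, it was 3.12%, 3.19% and 1.31% in cmd1 KO, against 2.46%, 2.60% and 2.56% in WT, above WT in the first pair and the second and below it in pair 3.

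The make-up of the LHCBM pool does not depend on scaling between libraries. For LHCBM1 it differed between genotypes mainly in replicates 1 and 2, whereas for LHCBM7 the difference was similar in all 3 pairs. LHCBM1 made up 54.5%, 54.5% and 39.3% of the summed LHCBM FPKM in cmd1 KO, against 39.5%, 38.5% and 35.4% in WT, higher in all 3 pairs (exact permutation test, two-sided, p = 0.2). LHCBM7 made up 18.3%, 19.0% and 22.1% in cmd1 KO, against 24.1%, 24.4% and 27.4% in WT, and was the only member whose shares of FPKM did not overlap (exact permutation test, two-sided, p = 0.1, the smallest possible). These p-values are not adjusted for the number of members tested. The shares are also not independent, since a rise in the share of 1 member lowers that of the others. In shares of counts, without the division by length, LHCBM1 did not overlap either, at 45.9%, 46.1% and 32.0% in cmd1 KO, against 31.6%, 30.5% and 29.1% in WT. LHCBM2 was also lower in all 3 pairs, at 6.03%, 6.46% and 13.3% in cmd1 KO, against 8.47%, 8.21% and 14.6% in WT. LHCBM2 and LHCBM7 together held 24.3%, 25.5% and 35.4% in cmd1 KO, against 32.5%, 32.6% and 42.0% in WT.

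The minor members moved by fewer percentage points than LHCBM1 and LHCBM7. LHCBM6 held 2.58%, 2.65% and 6.48% in cmd1 KO, against 6.66%, 6.92% and 4.91% in WT. LHCBM5 held 0.413%, 0.338% and 4.31% in cmd1 KO, against 2.93%, 2.60% and 3.01% in WT. In both, the cmd1 KO share lay below WT in replicates 1 and 2 and above it in replicate 3. LHCBM9 held 0.0160%, 0.0174% and 0.0488% in cmd1 KO, against 1.16%, 1.27% and 0.0213% in WT. LHCBM4 was above WT in replicates 1 and 2 and below it in replicate 3, with 0.781%, 0.733% and 0.937% in cmd1 KO, against 0.442%, 0.425% and 1.35% in WT. The share of LHCBM3 differed less between genotypes than between libraries, with means of 15.5% ± 1.99 in cmd1 KO and 15.7% ± 2.37 in WT (SD, n = 3 each). LHCBM8 stayed between 0.165% and 0.317% in every library.

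**Figure D4:**
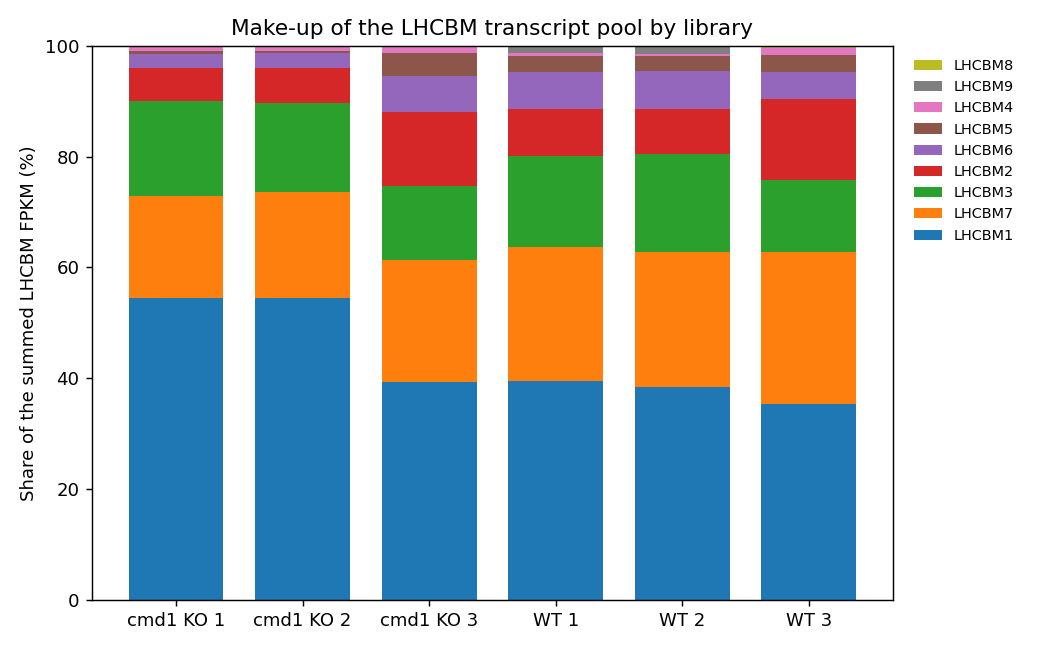
Stacked bars of each LHCBM gene's share of the summed LHCBM FPKM, in percent, for the 3 cmd1 KO libraries (left) and the 3 WT libraries (right). LHCBM1 takes 54.5% in cmd1 KO replicates 1 and 2 and 35.4% to 39.5% in the other 4 libraries.

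Gene length ordered the genotype difference in replicates 1 and 2, and most LHCBM genes are short. LHCBM1, LHCBM2, LHCBM4, LHCBM5 and LHCBM7 fell in the shortest of 5 equal classes of tested genes by the length behind the FPKM (241 to 1536 bases), whose median TMM log2 difference within replicates 1 and 2 was 0.96. LHCBM1 and LHCBM4 stood above that median, LHCBM2 and LHCBM7 a little below it, and LHCBM5 far below. LHCBM3 and LHCBM6 were in the next class (1536 to 2043 bases, median 0.44), LHCBM9 in the middle class (2043 to 2692 bases, median -0.08) and LHCBM8 in the fourth (2693 to 3739 bases, median -0.55). LHCBM8, at 1.25, and LHCBM9, at -4.92, stood on opposite sides of their classes. In pair 3 the medians of the 5 classes lay much closer together, between -0.10 in the fourth and 0.18 in the shortest. The part of length in the LHCBM differences was not tested.

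The genes around the chromosome 6 members did not share one direction. Between LHCBM8 and LHCBM6 lie 110390 bases with 14 tested genes. Within replicates 1 and 2 (TMM), edgeR called 6 of these higher and 6 lower, where it called 34.3% and 37.8% of all tested genes. The medians of the TMM log2 ratios of these 14 genes, -0.01, -0.06 and -0.14 for the 3 pairs in turn, were all near 0. Between LHCBM4 and LHCBM9 were 3 tested genes, 1 called higher and 1 lower. On chromosome 12, LHCBM7 and LHCBM2 are 49888 bases apart with 7 tested genes between them. Of these, 1 was called higher and 4 lower, whereas both LHCBM genes were called higher in that fit. Counts of so few genes, beside these shares of all tested genes, are a description only.

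The pattern of the family mean was closest, among all other tested genes, to 2 genes without a name in the files. The measure was Pearson's correlation of TMM-scaled log2 CPM (counts relative to the library total) with the mean of the 9 members over 6 libraries, which fall into separate sets and are a description only. Cre10.g449150.v5.5 (chromosome 10, 4022530 to 4026710) reached r = 0.995, with 0.727, 0.754 and 0.644 FPKM in cmd1 KO, against 1.67, 1.59 and 1.68 FPKM in WT. Cre07.g346317.v5.5 (chromosome 7, 4905246 to 4911867) reached 0.994, with 1.72, 2.03 and 1.65 FPKM in cmd1 KO, against 4.39, 3.94 and 3.85 FPKM in WT. These FPKM values are scaled on library size alone, so they do not show the TMM-scaled pattern that the correlation compared. How far the likeness follows the TMM factors themselves was not tested. Of the members themselves, LHCBM6 was the most like the mean of the other 8 (r = 0.932). LHCBM5 (-0.640) and LHCBM9 (-0.289) ran against it.

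The log2 fold changes (cmd1 KO over WT) in the authors' deposited table were negative for all 9 genes. They ranged in the authors' deposited table from -4.81 for LHCBM9 to -0.04 for LHCBM4, with a median of -0.75 over the 9, where that of all genes was -1.22. All lay close to the edgeR fit made here with library sizes alone and the replicate number as a block (-4.81 for LHCBM9). With TMM over all 6 libraries, LHCBM1, LHCBM2, LHCBM3, LHCBM4, LHCBM7 and LHCBM8 had positive values instead, none of them called. An unadjusted p under 0.05 was given in the authors' deposited table to 5 members, all lower (LHCBM2, LHCBM5, LHCBM6, LHCBM7 and LHCBM9), as it was to 51.4% of all genes. The smallest of these in the authors' deposited table was that of LHCBM6 (p = 0.000928, unadjusted), and that of LHCBM1 was 0.844.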

How the data were processed

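RNA was measured by sequencing in 3 cmd1 KO and 3 WT cultures, grouped and numbered by the sample titles. Per the labels' protocols, a stranded total RNA kit was used. FastQC 0.11.5, TopHat2 and Cufflinks 2.0.0 are named per the submitters' processing notes. The sources used here name no genome build, strand setting or counting tool and no treatment of reads that match several genes. Per the file headers, the deposited values are read counts per gene, which are whole and not normalised, and FPKM. Each deposited FPKM equals the count divided by 1 fixed length per gene (whole within 0.01 base for 100% of genes) and by the column total. The authors' own log2 fold change and log2 CPM, F score and unadjusted p-value are deposited without a stated model, per the file headers.

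The main test was edgeR 4.0.16 (glmQLFit, glmQLFTest, two-sided, TMM factors) on the deposited counts of the 10878 genes that averaged 1 FPKM or more, with Benjamini-Hochberg adjustment over all of them. It was fitted over 6 libraries, within replicates 1 and 2, and with an interaction of genotype and replicate 3. The SE is the log2 difference divided by the square root of F. Alternatives were DESeq2 1.42.0 and limma 3.58.1 in R 4.3.3, other scalings and filters, the replicate block and leaving out each library. Leaving out libraries within replicates 1 and 2 and in the interaction was added after the data were seen, as it was for the shares. The edgeR script was tested on simulated counts. Exact permutation tests used scipy 1.17.1 under Python 3.11.15. Log2 ratios per pair used CPM (counts relative to the library total) with a prior count of 1.

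Same-numbered libraries deviated together from their group means (r = 0.530, 0.427 and 0.547 across genes for numbers 1, 2 and 3). The same correlation was not computed between libraries of different numbers, and replicate 3 stood apart in both genotypes. These values therefore cannot tell pairs by number from a shared difference of replicate 3. The labels state no pairing. Same numbers were set side by side as pairs because the sample titles number the libraries of both genotypes alike. Counts of libraries of 1 genotype differed by more than sampling noise. Chi-square per degree of freedom between replicates 1 and 2 was 11.7 in cmd1 KO and 25.8 in WT. Replicate 3 was much further off, at 951 and 859 from cmd1 KO replicates 1 and 2 and 463 and 477 from those of WT. Each library was counted as a replicate, though a difference beyond sampling noise does not show separate cultures. The labels call them biological replicates.

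The members, lists and tests were chosen with earlier results of these data known. Named genes were the 9 members and the 2 other genes most like their mean. The LHCBM names are those in general use for these identifiers. A list of antenna relatives by protein alignment was planned and not used here, since no protein sequences were at hand. Locus tags in RefSeq's table for the v5.5 assembly placed 17733 of 17736 identifiers, with all 9 members among them. Of the per-sample columns, 0 were unused.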

Additional observations from a re-analysis of the deposited data

Results flagged for a closer look

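The genotype difference (log2, cmd1 KO minus WT, TMM) in replicate 3 minus that in replicates 1 and 2 differed from 0 in edgeR's interaction test for 8 members. It was -2.37 for LHCBM1, -1.75 for LHCBM2, -1.97 for LHCBM3, -3.37 for LHCBM4, -1.97 for LHCBM7 and -2.57 for LHCBM8. The same quantity was 1.36 for LHCBM5 and 5.34 for LHCBM9, whose log2 differences were negative in replicates 1 and 2 and nearer to 0 in replicate 3. Adjusted p-values ran from 8.74e-13 for LHCBM9 to 6.01e-05 for LHCBM5. All 8 kept this sign, and stayed past the threshold, with library sizes alone, RLE size factors, other filters, DESeq2 and without each library of replicates 1 and 2. Over all tested genes 50.7% were called. Groups of 3 libraries are too small for a search for outlying samples.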

How the results depend on the processing

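The count of 0 genes called over all 6 libraries became 688 with DESeq2 and ranged from 0 to 4227 when 1 library was left out, the highest without cmd1 KO replicate 3. The count of 0 LHCBM members became 1 with DESeq2 (LHCBM9) and ranged from 0 to 4 when 1 library was left out. Pairing the numbers (replicate block) gave 0 members over all 6 libraries and 8 within replicates 1 and 2, so it changed no call. The count of 8 members within replicates 1 and 2 ranged from 7 with library sizes alone to 9 with the filter at 5 FPKM; it was 8 without any 1 of these libraries, where the lone library of a genotype is assumed to vary like the other genotype's.

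Of 153 alternative values of the members' log2 differences over all 6 libraries, 25 changed sign. With library sizes alone they were -0.85 for LHCBM2, -0.39 for LHCBM3, -0.41 for LHCBM4, -0.80 for LHCBM7 and -0.75 for LHCBM8. In the replicate block with library sizes alone they were -0.0551 for LHCBM1, -0.76 for LHCBM2, -0.44 for LHCBM3, -0.0379 for LHCBM4, -0.79 for LHCBM7 and -0.61 for LHCBM8. limma on log2(FPKM + 1) gave -0.0614, -0.76, -0.45, -0.0757, -0.79 and -0.59 for the same 6 genes, and on log2(FPKM + 0.1) -0.0615, -0.76, -0.45, -0.0735, -0.79 and -0.62. LHCBM2 was -0.13 with the filter at 5 FPKM. LHCBM6 ranged from -0.33 to 0.0318 when 1 library was left out. Within replicates 1 and 2, library sizes alone gave -0.53 for LHCBM2, -0.15 for LHCBM3, -0.49 for LHCBM7 and -0.12 for LHCBM8, and no filter gave 0.016 for LHCBM6. The interaction of LHCBM6 was 0.81 with library sizes alone and 0.0251 with the filter at 5 FPKM. The cause of these sign changes was not tested.

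The mean share of LHCBM in all counts was lower in cmd1 KO by -0.431 percentage points (cmd1 KO minus WT), and the difference became 0.00191 without the 50 most abundant genes. Of 77 alternative differences in shares within the family, 8 changed sign. Counts per member were at least 176, so depth limits LHCBM9 most.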

Other observations

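Ratios between members followed the replicate in one case and the library in another. The FPKM ratio of LHCBM2 to LHCBM7 was 0.330, 0.339 and 0.602 in the cmd1 KO libraries, against 0.352, 0.337 and 0.531 in WT, so it was higher in replicate 3 of both genotypes and hardly differed between genotypes. The FPKM ratio of LHCBM4 to LHCBM8 was 4.64, 4.46 and 4.30 in cmd1 KO, against 2.61, 2.58 and 4.26 in WT. WT replicates 1 and 2, the same libraries in which LHCBM9 was high, were thus alone in the low ratio. That of LHCBM1 to LHCBM5 was 132, 161 and 9.12 in cmd1 KO, against 13.5, 14.8 and 11.7 in WT. None of these ratios was tested.

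Between WT libraries, replicate 3 differed from the geometric mean of replicates 1 and 2 in FPKM by 4.05 times for LHCBM4, 2.46 times for LHCBM8, 2.27 times for LHCBM2 and 0.0229 times for LHCBM9, and by 0.994 times for LHCBM3 and 0.940 times for LHCBM6. In cmd1 KO the same ratio was 7.67 for LHCBM5, 1.94 for LHCBM9 and 0.480 for LHCBM1.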
